A study of Homo sapiens with 6 samples.

Results

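CHSY3 and the other genes that build chondroitin sulfate were followed in A2780 cells, an ovarian carcinoma line, and in a clone of that line whose CDK12 gene had been knocked out (KO). The genes are CHSY1, CHSY3, CHPF, CHPF2, CSGALNACT1, CSGALNACT2, CHST11, CHST12, CHST15 and XYLT1. They were found by symbol among the 60483 genes listed in the count table, all 10 were present, and all 10 were among the 16198 genes that had enough counts to be tested. CHSY3 and XYLT1 passed that filter through the KO libraries alone. CHSY3 was picked because its level differed between KO and wild type (WT), and the others were chosen by their function with results of this comparison already known. Their differences are therefore described here without p-values.

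RNA was sequenced in 3 libraries of WT A2780 cells and 3 libraries of A2780 CDK12 KO cells, both kept in RPMI medium with serum. The KO cells were transfected with a CRISPR/Cas9 plasmid against exon 1 of CDK12, in 2 rounds, and the KO group is a single clone, so the loss of CDK12 and any other property of that clone cannot be told apart. Nothing in the labels says whether the libraries of a group came from separate cultures, and the spread between them may be technical.

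Total counts ranged from 11098400 to 30899045, with WT replicate 3 the smallest, and levels are given as CPM, the count scaled to a common library size with TMM factors. CDK12 RNA was present in both groups, at 103, 125 and 116 CPM in WT and 98.9, 92.9 and 102 CPM in KO. The edit lies in exon 1, so a count over the whole gene is a weak check of the genotype. The paper itself reports edits of both alleles by sequencing and no CDK12 protein by western blot. Of 6 epithelial markers, 3 had 10 or more counts in every library, and the 6 summed to between 68.1 and 73.6 CPM in WT and between 114 and 119 CPM in KO. None of 4 ovarian or Müllerian markers did (PAX8, WT1, MUC16 and SOX17). The 6 fibroblast markers summed to between 11011 and 11378 CPM in WT and between 8520 and 8798 CPM in KO, and 4 of them (COL1A1, DCN, LUM and PDGFRB) were called lower in KO. COL1A2 and COL3A1 were not called, and the highest log2 fold change among the 6 was -0.01. Of 6 chondrocyte markers, 2 had 10 or more counts in every library, COL2A1 and COL9A1 had at most 3, and COMP was called lower. Their sum was 12.3 to 14.1 CPM in WT and 6.96 to 7.36 CPM in KO. The 4 endothelial markers summed to between 0.146 and 0.367 CPM in WT and between 0.673 and 0.891 CPM in KO, with VWF called higher and CDH5, KDR and PECAM1 at 3 counts or fewer. The 5 leukocyte markers summed to between 0.720 and 0.984 CPM in WT and between 0.772 and 1.15 CPM in KO, with CD14 called higher and CD3E and PTPRC at 3 counts or fewer. The part of other cells in the results was not tested, and in bulk RNA fewer cells of a type cannot be told apart from less RNA per cell.

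Chondroitin sulfate is a long sugar chain attached to a core protein, and together they form a proteoglycan of the cell surface or the extracellular matrix. The chain is begun on a serine of the core protein by a xylose and a short linker, which heparan sulfate shares. It is then committed to chondroitin by the first N-acetylgalactosamine, extended by alternating glucuronic acid and N-acetylgalactosamine, and sulfated. In ovarian tumours chondroitin sulfate is known mainly from versican, a matrix proteoglycan.

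CHSY3 spans bases 129904465 to 130186634 of chromosome 5 (GRCh38, plus strand), with 3 exons and 882 codons in the canonical transcript. XYLT1 lies on the minus strand of chromosome 16, from 17101769 to 17470960. The 250 bases before the start of each gene are shown because these were the members called higher in KO, both with at most 6 counts in any WT library. They are RefSeq sequences of GRCh38.p14, read 5′ to 3′ on the gene's strand, with every CG dinucleotide in capitals. The CHSY3 window is chr5:129904215-129904464 on the plus strand and the XYLT1 window is chr16:17470961-17471210 on the minus strand.

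CHSY3: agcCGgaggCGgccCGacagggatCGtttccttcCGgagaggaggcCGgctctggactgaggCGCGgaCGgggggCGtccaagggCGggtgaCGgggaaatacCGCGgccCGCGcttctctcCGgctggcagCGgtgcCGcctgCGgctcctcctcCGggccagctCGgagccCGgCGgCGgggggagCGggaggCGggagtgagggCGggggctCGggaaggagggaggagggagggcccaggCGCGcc
XYLT1: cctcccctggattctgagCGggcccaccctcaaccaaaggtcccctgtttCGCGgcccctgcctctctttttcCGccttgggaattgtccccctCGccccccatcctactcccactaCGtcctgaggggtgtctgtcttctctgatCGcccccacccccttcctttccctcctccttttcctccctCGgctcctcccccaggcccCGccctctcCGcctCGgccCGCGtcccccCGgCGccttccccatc

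The CHSY3 window holds 31 CG dinucleotides, and 10.9% of the 35116 windows of this length in the table hold as many. XYLT1 has 15, which 42.9% of the windows reach, and the median window has 11. A promoter entry was found for 9 of the 10 genes and not for CSGALNACT1, and the counts of these entries ran from 14 in CHST15 to 37 in CHST12. CHST11 has 31 as well. The letters TATAAA were in none of the members' 10 windows (CHPF has 2), against 10.7% of all windows. GGGCGG was in 9 of the 10, CHSY3 and XYLT1 included, against 42.6%, and CCAAT in 1, against 32.0%. Both strands were searched, and these matches describe the letters only.

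CHSY3 encodes a chondroitin synthase, an enzyme with both transferase activities needed to lengthen the chain. The counts were 1, 3 and 1 in WT and 828, 929 and 619 in KO, which is 0.0365, 0.100 and 0.0900 CPM against 33.7, 34.5 and 34.7 CPM. All WT libraries were at the edge of detection, the KO libraries were close to each other, and the groups did not overlap. The ratio of the summed counts, scaled to library size, was 469, with a 95% exact interval of 201 to 1447 that covers counting error only. Its KO mean was 127 times the level that 3 counts correspond to in WT replicate 3, the smallest library, and 314 times the highest such floor when that library was left out. None of the 3939 words of 75 bases in annotated CHSY3 transcripts, the length of the reads, occurs in a transcript of another gene, CHSY1 included.

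**Figure D1:**
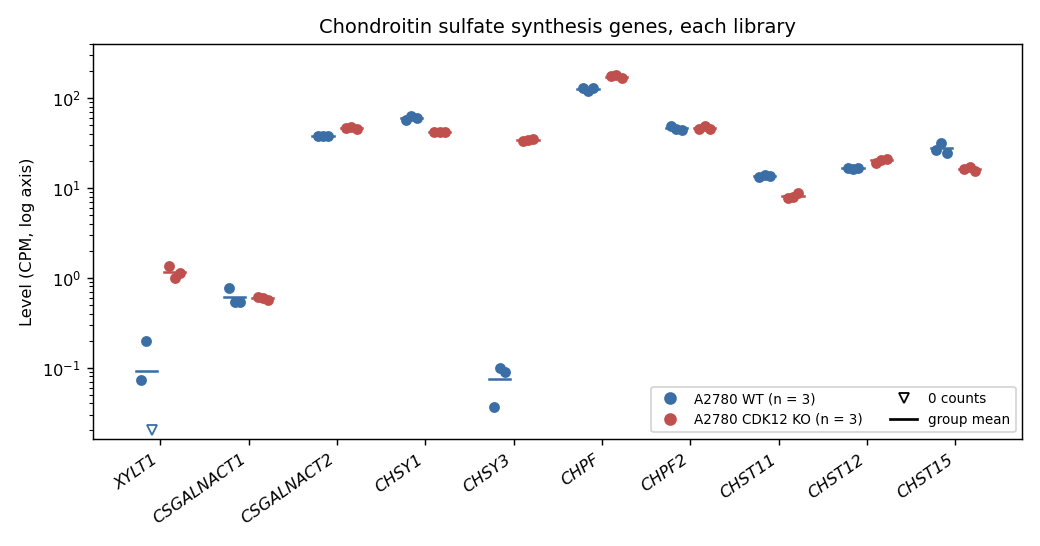
Level of each chondroitin sulfate synthesis gene in CPM (log axis) in the 3 WT (blue) and 3 KO (red) libraries, with a line at each group mean and an open triangle for a library with 0 counts. CHSY3 moves from 0.0755 CPM on average in WT to 34.3 CPM in KO and XYLT1 from 0.0910 to 1.16 CPM, while the means of the other 8 genes differ by at most 1.71-fold.

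CHSY1, the other chondroitin synthase, lay the other way. Its level was 57.5, 63.0 and 59.6 CPM in WT and 41.7, 41.6 and 42.1 CPM in KO, a log2 fold change (KO against WT) of -0.52 with a standard error (SE) of 0.0561. Each SE was derived from the test statistic of the fit, and no p-value is read from it for the members. The KO libraries were all below the WT libraries. Divided by exon length, CHSY1 had 10.1 to 11.1 CPM per kb in the WT libraries and 7.33 to 7.43 in the KO libraries, and CHSY3 had 8.53 to 8.81 in the KO libraries. The sum of both synthases per kb was thus 10.1 to 11.1 in the WT libraries and 15.9 to 16.2 in the KO libraries, and CHSY3 made up 53.7% to 54.4% of it in KO against 0.0911% to 0.228% in WT. With the length of the canonical transcript the KO means were 8.96 CPM per kb for CHSY1 and 8.89 for CHSY3, with overlapping libraries. Which synthase was higher in KO thus depended on the length used.

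CHPF and CHPF2 are chondroitin polymerizing factors, relatives of the synthases that act with them in chain extension. CHPF was at 130, 120 and 130 CPM in WT and 175, 179 and 166 CPM in KO, a log2 fold change of 0.45 (SE 0.0498), and the groups did not overlap. CHPF2 was at 48.8, 45.5 and 43.8 CPM in WT and 44.8, 48.8 and 45.7 CPM in KO, so its libraries overlapped, and its log2 fold change was 0.01 (SE 0.0588). Of the CHPF2 words of 75 bases, 15.5% also occur in other annotated genes, mainly SMARCD3, so a part of its count is uncertain. Over all 4 genes of this family the level per kb of exon summed to 51.9 ± 1.16 in WT and 70.0 ± 1.92 in KO (SD, n = 3 each). CHSY3 held 12.2%, 12.2% and 13.0% of that sum in the KO libraries and at most 0.0501% in a WT library.

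**Figure D2:**
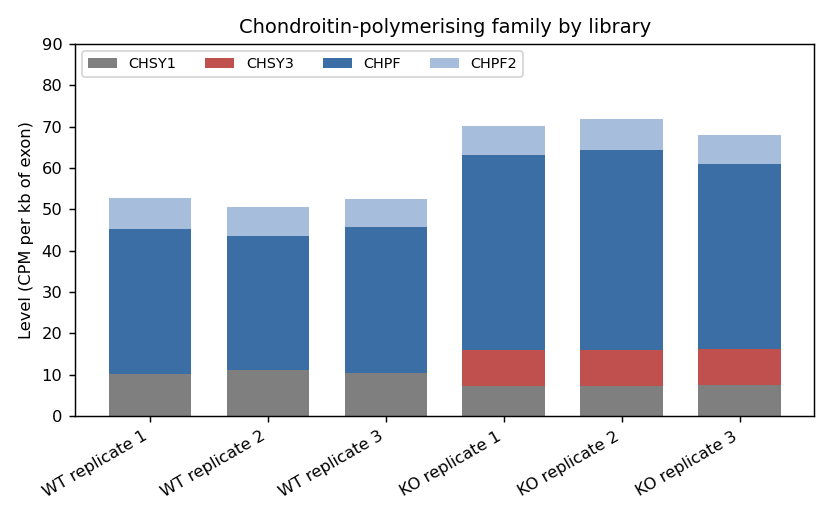
Levels of CHSY1, CHSY3, CHPF and CHPF2 in CPM per kb of exon, stacked for each of the 6 libraries. CHPF is the largest part in every library, CHSY3 is visible only in the 3 KO libraries, and CHSY1 is smaller there.

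CSGALNACT1 and CSGALNACT2 are the transferases that place the first N-acetylgalactosamine on the linker. CSGALNACT2 was at 37.9, 37.6 and 38.2 CPM in WT and 46.3, 47.8 and 45.4 CPM in KO, a log2 fold change of 0.30 (SE 0.0571) without overlap. CSGALNACT1 was low throughout, with 21, 16 and 6 counts in WT and 15, 16 and 10 in KO. Its libraries overlapped, its log2 fold change was -0.08 (SE 0.312), and it was 0.14 without WT replicate 1.

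XYLT1 is one of a pair of xylosyltransferases that begin the linker. It had 2, 6 and 0 counts in WT and 33, 27 and 20 in KO, or 1.34, 1.00 and 1.12 CPM in KO, and the groups did not overlap. The scaled ratio of summed counts was 9.88 (95% exact interval 4.78 to 23.7, counting error only). The size of this difference rested on few WT counts: its fitted log2 fold change was 3.25 (SE 0.422) with all libraries and 4.33 without WT replicate 2. With DESeq2 the SE was larger, 0.653. XYLT2, the other xylosyltransferase, was far more abundant, with a WT mean of 60.2 ± 0.333 CPM and a KO mean of 54.2 ± 1.92 CPM (SD, n = 3 each), at a log2 fold change of -0.15 (edgeR, adjusted p = 0.0152).

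CHST11 and CHST12 are chondroitin sulfotransferases with the same acceptor position on N-acetylgalactosamine, and CHST15 adds a further sulfate to such a unit. CHST11 was at 13.2, 13.9 and 13.5 CPM in WT and 7.76, 7.87 and 8.87 CPM in KO, a log2 fold change of -0.74 (SE 0.0925). CHST15 was at 26.5, 31.4 and 24.6 CPM in WT and 16.1, 17.1 and 15.6 CPM in KO, a log2 fold change of -0.78 (SE 0.0799). Both were lower in every KO library than in any WT library. CHST12 lay the other way, with 16.5, 16.3 and 16.7 CPM in WT and 18.9, 20.5 and 21.2 CPM in KO, a log2 fold change of 0.29 (SE 0.0751), again without overlap.

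A gene was called when edgeR's adjusted p was under 0.05 and its log2 fold change was above 1 or below -1. By that rule 2 of the 10 members, CHSY3 and XYLT1, were called higher and 0 were called lower, beside 8.30% of all tested genes called higher and 7.73% called lower. By the adjusted p alone 5 were higher and 3 lower, beside 31.9% and 32.0% of all tested genes. The libraries of the groups did not overlap for 8 of the 10, beside 66.3% of all tested genes. The median log2 fold change of the 10 was 0.15, against 0.00 over all tested genes. Nothing is read from these counts, since the members were chosen with this comparison known.

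Ordered by level per kb of exon, CHPF was highest in both groups, at 34.2 ± 1.53 CPM per kb in WT and 46.8 ± 1.83 in KO (SD, n = 3 each). In WT it was followed by CHSY1, CSGALNACT2, CHPF2, CHST15, CHST11, CHST12, CSGALNACT1, CHSY3 and XYLT1. Neighbours in that order had separate libraries except CHSY1 and CSGALNACT2, and CHSY3 and XYLT1. In KO the order was CHPF, CSGALNACT2, CHSY3, CHSY1, CHPF2, CHST15, CHST11, CHST12, XYLT1 and CSGALNACT1, and CHSY1 overlapped with CHPF2 and CHST11 with CHST12. CHSY3 thus held the ninth place in WT and the third in KO. With the length of the canonical transcript it took the fifth place in KO and overlapped with CHSY1, at 8.89 CPM per kb. The place of CHST12 rests on an annotated exon length of 16116 bases, of which 1242 are coding.

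The surroundings of CHSY3 were described by the 3 nearest tested genes on each side. Inside CHSY3 and on the same strand lies HSPA8P4, a processed pseudogene from 130140031 to 130141950 that shares no base with a CHSY3 exon. It had 1, 3 and 0 counts in WT and 90, 91 and 64 in KO (scaled ratio 60.5, 95% exact interval 23.3 to 224, counting error only). Its fitted log2 fold change was 5.80, and 6.80 without WT replicate 2. It passed the filter through the KO libraries alone and lies inside the gene chosen for this difference, so no p-value is given. In the KO libraries its count was 10.9%, 9.80% and 10.3% of that of CHSY3, a nearly fixed share. Reads from CHSY3 introns would be counted there as well, and their part was not tested. None of the 1846 words of 75 bases in HSPA8P4 occurs in a transcript of another gene.

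An unnamed long non-coding RNA, ENSG00000251680, runs on the minus strand from 129500361 to 129905917 and overlaps the start of CHSY3 by 1453 bases, of which 52 are exon bases of both. It had 0 counts in every WT library and 25, 35 and 21 counts in KO, at least 4.32-fold higher than the floor of 3 counts per library. This RNA too passed the filter through the KO libraries alone and overlaps CHSY3, so no p-value is given. The kit kept the strand of the RNA, but the strand setting of the counting is not given in the sources used here. ADAMTS19 and MINAR2, protein-coding genes between ISOC1 and CHSY3, had 2 and 1 counts over the WT libraries and 3 and 1 over the KO libraries and were not tested.

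**Figure D3:**
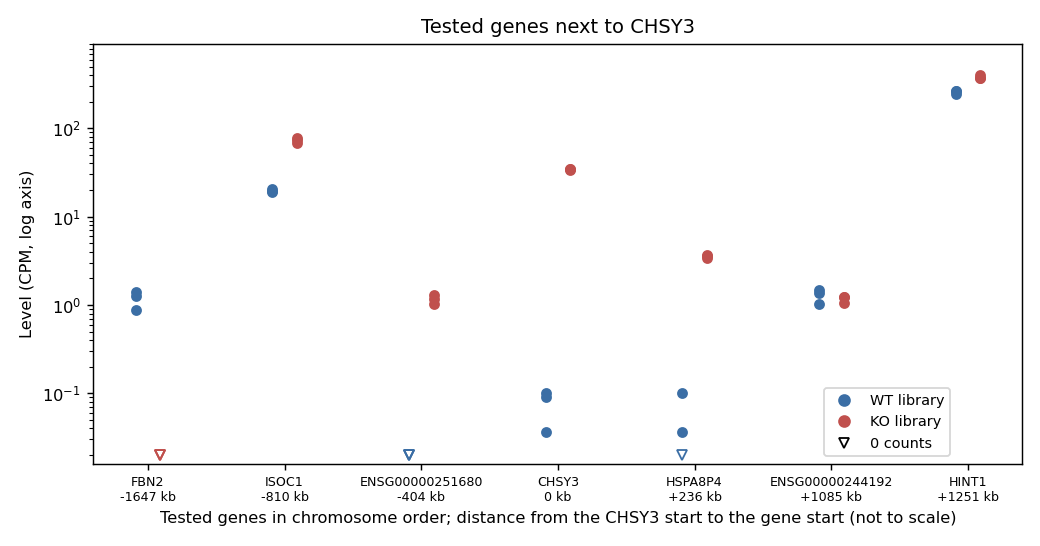
Level in CPM (log axis) of CHSY3 and the 3 nearest tested genes on each side in chromosome order, with the distance of each gene start from that of CHSY3. Blue points are WT libraries, red points KO libraries and open triangles libraries with 0 counts, and the highest WT library lies below the lowest KO library for ISOC1, ENSG00000251680, CHSY3, HSPA8P4 and HINT1 but not for FBN2 or ENSG00000244192.

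Further out the directions differed. ISOC1, which starts at -810 kb from the start of CHSY3, rose from a mean of 19.6 ± 0.645 CPM to one of 72.7 ± 4.38 CPM (SD, n = 3 per group), with a log2 fold change of 1.90 (SE 0.0630; edgeR, adjusted p = 6.97e-23). FBN2, the gene of the microfibril protein fibrillin-2, starts at -1647 kb and fell from 39, 26 and 14 counts in WT to 0 in every KO library. That is at least 7.03-fold lower with the floor of 3 counts per library. It passed the filter through the WT libraries alone, so no p-value is given. On the other side, the pseudogene ENSG00000244192 at 1085 kb had a log2 fold change of -0.11 (edgeR, adjusted p = 0.708). HINT1, at 1251 kb, was higher by 0.55 on the log2 scale (SE 0.0487; edgeR, adjusted p = 1.53e-11), under the fold threshold. Over the 743 tested genes of chromosome 5 the median log2 fold change was 0.27, against 0.00 over all tested genes, and 12.2% were called higher and 7.81% lower. The paper reports a higher chromosome number and DNA content in the KO clone than in WT cells. Its karyotype of the clone lists a gained chromosome 5. The part of copy number in these values was not tested.

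The genes whose levels were most like those of CHSY3 over the 6 libraries, by Euclidean distance of log2(CPM + 0.5), were FENDRR (distance 0.46), LEF1 (0.59), TSPAN1 (0.67), FOXF1 (0.75) and STRA6 (0.87). LEF1 and FOXF1 encode transcription factors and FENDRR a long non-coding RNA. They lie on chromosomes 16, 4, 1, 16 and 15, so none is a neighbour of CHSY3, while FENDRR and FOXF1 lie next to each other on opposite strands. Each had at most 8 counts in any WT library, and their KO means were 38.3, 28.8, 38.4, 27.0 and 43.0 CPM. Among the 124 genes with at most 3 counts in each WT library and 10 or more in each KO library, CHSY3 had the fourth highest KO level, and it was the 1 member among them.

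For the rest of the pathway, 106 genes in 9 lists were examined, from linker synthesis to core proteins and degradation, and 76 of them were tested. Of the 76, 13 were called higher and 8 lower, beside 8.30% and 7.73% of all tested genes. By the adjusted p alone 23 were higher, 30 lower and 23 neither, beside 31.9% higher and 32.0% lower over all tested genes. Their median log2 fold change was -0.04. These lists too were written with earlier results of the data known. The adjusted p-values given for their genes therefore set a difference against its spread and are not independent support. Counts for single lists are to be read beside the shares over all tested genes, and nothing is concluded from them.

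**Figure D4:**
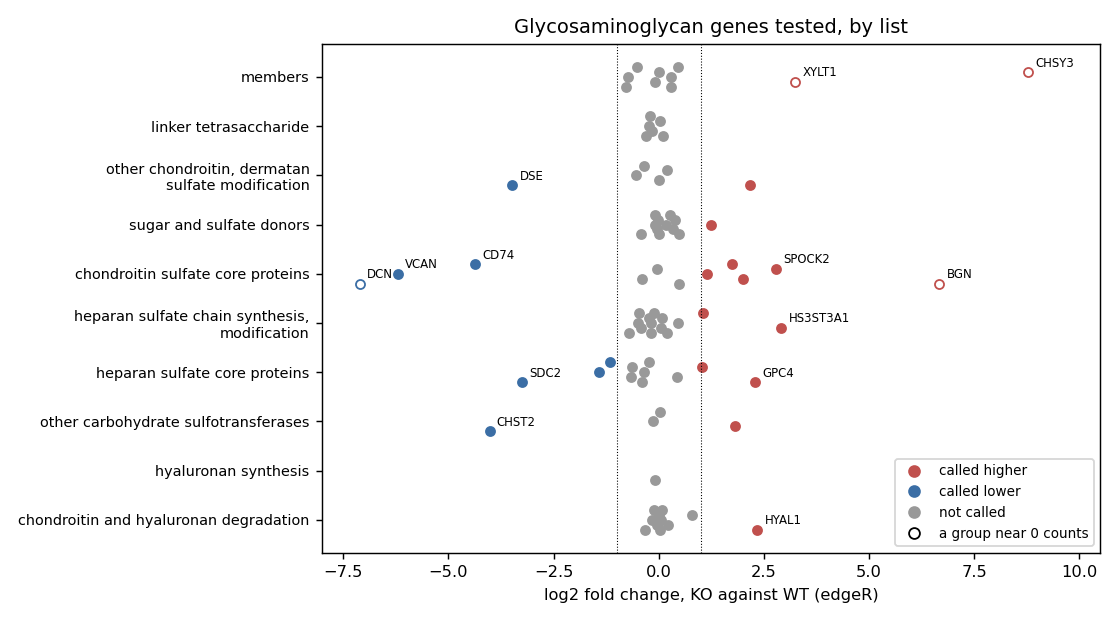
log2 fold change, KO against WT, of the tested members and of the tested genes of 9 glycosaminoglycan lists, red for genes called higher, blue for genes called lower and grey for the rest, with dotted lines at -1 and 1. Open circles mark genes with a group near 0 counts, whose fitted values depend on the prior count, and most enzymes lie between the lines while the core proteins spread from VCAN and DCN on the left to BGN on the right.

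None of the 6 tested linker genes was called, beside 8.30% of all tested genes called higher and 7.73% called lower. Their median log2 fold change was -0.17, and 4 were lower by the adjusted p alone, beside 32.0% of all tested genes. FAM20B, the kinase that phosphorylates the linker xylose, had the highest level per kb of exon in both groups and a log2 fold change of -0.20 (edgeR, adjusted p = 0.00162). Among 12 genes that supply sugar and sulfate donors, 6 were higher and 1 lower by the adjusted p alone, beside 31.9% and 32.0% of all tested genes. Only SLC26A1, a sulfate transporter with 5 to 20 counts per library, was called, at a log2 fold change of 1.24. SLC26A1 reached the filter only with the KO libraries, so no p-value is given. It was at 0.98 without KO replicate 3, under the threshold. Its span overlaps that of IDUA on the opposite strand, and the strand setting of the counting is not given. PAPSS1, which makes the sulfate donor, had a WT mean of 126 ± 2.21 CPM and a KO mean of 152 ± 4.13 CPM (SD, n = 3 per group), with a log2 fold change of 0.26 (edgeR, adjusted p = 1.5e-05). SLC35B2, which carries that donor into the Golgi, had a log2 fold change of -0.08 (edgeR, adjusted p = 0.161).

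The other enzymes that modify chondroitin and dermatan sulfate included 1 gene called higher and 1 called lower among 6 tested, beside 8.30% and 7.73% of all tested genes. DSE, the epimerase that turns chondroitin into dermatan sulfate, had 239, 289 and 88 counts in WT and 20, 22 and 13 in KO. It fell from 8.76 ± 0.861 to 0.786 ± 0.0491 CPM (SD, n = 3 per group), a log2 fold change of -3.48 (SE 0.166; edgeR, adjusted p = 1.5e-18). CHST14, the dermatan sulfotransferase that acts after it, was lower by less, at a log2 fold change of -0.36 (edgeR, adjusted p = 4.46e-06). CHST3, which sulfates the other common position of chondroitin, had a log2 fold change of 0.20 (edgeR, adjusted p = 0.00423). CHST13, of the CHST11 family, rose from 5, 2 and 3 counts to 19, 18 and 10 counts, a log2 fold change of 2.17. CHST13 reached the filter only with the KO libraries, so no p-value is given. Its level in KO was still low, 0.667 CPM on average.

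Of 19 core proteins that carry chondroitin sulfate, 11 were tested, 5 were called higher and 3 lower, beside 8.30% and 7.73% of all tested genes. VCAN, the gene of versican, had 7147, 9055 and 3125 counts in WT and 100, 82 and 80 in KO. It fell from 281 ± 20.7 to 3.87 ± 0.744 CPM (SD, n = 3 per group), a log2 fold change of -6.21 (SE 0.0857; edgeR, adjusted p = 1.21e-33). APLP2, a relative of the amyloid precursor protein of which some isoforms carry chondroitin sulfate, rose from 339 ± 6.77 to 746 ± 6.53 CPM (SD, n = 3 per group), a log2 fold change of 1.14 (SE 0.0460; edgeR, adjusted p = 1.83e-20). Per kb of exon APLP2 had the highest mean of the listed core protein genes in both groups, 45.4 CPM per kb in WT and 99.9 in KO.

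The small proteoglycans of the list went in both directions at low counts. DCN, the gene of decorin, had 19, 23 and 9 counts in WT and 0 in every KO library, at least 4.49-fold lower. BGN, the gene of the related biglycan, had 0 counts in every WT library and 15, 16 and 7 in KO, at least 1.97-fold higher. DCN passed the filter through the WT libraries alone and BGN through the KO libraries alone, so no p-value is given for them. SPOCK2 and SPOCK1, of the testican family, rose by 2.79 and 1.73 on the log2 scale, and COL9A2, a collagen chain, by 2.01 (SPOCK2: edgeR, adjusted p = 3.97e-18). CD74, the invariant chain of MHC class II, fell by 4.37, from 95, 96 and 23 counts in WT to 4, 3 and 3 in KO. The KO counts of CD74 were near the floor of 3 counts per library. SPOCK1 and COL9A2 reached the filter only with the KO libraries and CD74 only with the WT libraries, so no p-value is given for them.

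Heparan sulfate is built on the same linker. Of its 14 tested enzymes 2 were called higher and 0 lower, beside 8.30% and 7.73% of all tested genes. They were HS3ST3A1 (log2 fold change 2.91) and HS3ST3B1 (log2 fold change 1.06, edgeR, adjusted p = 0.00235), both sulfotransferases of low level. HS3ST3A1 reached the filter only with the KO libraries, so no p-value is given for it. HS3ST3B1 was under the threshold with voom/limma, at 0.98, and without WT replicate 2 or KO replicate 2, at 0.99 and 0.75. EXTL2 and NDST1, of the highest mean level per kb of exon over all libraries, had log2 fold changes of -0.49 and 0.05 (edgeR, adjusted p = 3.54e-09 and 0.461). Of 11 tested core proteins 2 were called higher and 3 lower, beside 8.30% and 7.73% of all tested genes. By the adjusted p alone 3 were higher and 8 lower, beside 31.9% and 32.0% of all tested genes. The syndecans SDC1, SDC2 and SDC4, which are transmembrane proteoglycans, fell, with log2 fold changes of -1.43, -3.24 and -1.15 (edgeR, adjusted p = 4.63e-22, 5.69e-20 and 3.2e-13). SDC3, the other syndecan, named here after its values were seen, lay the other way, with a WT mean of 79.9 ± 6.25 CPM and a KO mean of 109 ± 1.97 CPM (SD, n = 3 per group; log2 fold change 0.44, edgeR, adjusted p = 1.28e-08). The glypican GPC4 rose from 30.7 ± 1.56 to 149 ± 4.41 CPM (SD, n = 3 each; log2 fold change 2.28, edgeR, adjusted p = 1.35e-26), while GPC1 had a log2 fold change of -0.35 (edgeR, adjusted p = 4.26e-07). The other glypicans are named here after their values were seen. GPC2 had a log2 fold change of -0.66 (edgeR, adjusted p = 1.67e-06). GPC3, GPC5 and GPC6 were not tested, with 27, 20 and 11 counts over the WT libraries and 3, 0 and 0 over the KO libraries. HSPG2, the gene of perlecan, rose by 1.02 (edgeR, adjusted p = 5.75e-17) and was at 0.95 without WT replicate 1.

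Sulfotransferases of other sugars and the genes of hyaluronan completed the lists. CHST2, which sulfates N-acetylglucosamine, fell from 463, 553 and 203 counts to 26, 31 and 19 counts, a log2 fold change of -4.02 (SE 0.131; edgeR, adjusted p = 4.36e-23). CHST8 rose by 1.82 on the log2 scale at 5 to 25 counts per library. CHST8 reached the filter only with the KO libraries, so no p-value is given for it. CHST10 had a log2 fold change of -0.14 (edgeR, adjusted p = 0.0319). Of the hyaluronan synthases, which make the related unsulfated chain, HAS3 had a log2 fold change of -0.10 (edgeR, adjusted p = 0.539), and HAS1 had 1 count in all. Among 11 tested genes of degradation 1 was called higher and 0 lower, beside 8.30% and 7.73% of all tested genes. HYAL1, a lysosomal hyaluronidase, rose from 4.24 ± 0.310 to 21.1 ± 0.229 CPM (SD, n = 3 per group), a log2 fold change of 2.34 (SE 0.0953; edgeR, adjusted p = 2.09e-20). GUSB, a lysosomal glucuronidase, had a log2 fold change of 0.01 (edgeR, adjusted p = 0.867).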

How the data were processed

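RNA-seq of A2780 WT and A2780 CDK12 KO cells was analysed, with 3 libraries per genotype as given by the labels. The authors deposited raw counts per Ensembl gene: per the labels and the methods of the study, 75-base stranded single-end reads were checked with FastQC, aligned to GRCh38 with STAR and counted with HTSeq. Tool versions, annotation release and strand setting are not given in the sources used here. The values were whole numbers and were not normalized. Total counts per library set the precision: 3 counts corresponded to 0.100 to 0.270 CPM. Reads carried no molecular identifiers, so intervals and floors cover counting error only.

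Genes were matched to GENCODE release 44 without the version, and exon length is the union of annotated exons. The test of KO against WT used edgeR 4.0.16 under R 4.3.3 (filterByExpr with a minimum count of 10, TMM, quasi-likelihood test, two-sided, Benjamini-Hochberg adjustment over the 16198 tested genes). Each edgeR SE is the absolute log2 fold change divided by the square root of the quasi-likelihood F statistic, so it is no separate estimate of spread. The study used voom/limma with the same thresholds, and here limma 3.58.1 and DESeq2 1.42.0 were alternatives. The edgeR, limma and DESeq2 fits were tested on simulated counts. The changed genes were drawn above a minimum mean level that XYLT1 does not reach, and the changes were smaller than that of CHSY3. The simulation therefore gives no assurance for these genes. Ratios at low counts used the exact binomial (Clopper-Pearson) interval. Python 3.11.15 with pandas 2.3.3 and scipy 1.17.1 served for the other steps.

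The members and gene lists were chosen with earlier results of these data known. Besides the members, the genes named are those past both thresholds and the 2 of highest mean level per kb over all libraries in each list, the 3 nearest tested genes on each side of CHSY3 and the 5 with the smallest distance to it. Within each group the libraries were compared in pairs by chi-square, which was 1.65 to 6.42 times its degrees of freedom, so each was kept as a separate library. Not every gene that this rule names is reported here. Protein sequences and sequencing reads were not used here.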

Additional observations from a re-analysis of the deposited data

How the results depend on the processing

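No paired analysis was possible because the labels pair no WT library with a KO library. With voom/limma, DESeq2, median-of-ratios or upper-quartile scaling, or any library left out, 2 members were called higher and 0 lower. With at least 10 counts in every library, a filter that removes CHSY3 and XYLT1 by construction, 0 members and 5 pathway genes were called higher, and 568 genes in all were called higher and 684 lower. On the adjusted p alone, 5 members were higher and 3 lower, 23 pathway genes higher and 30 lower, and 5165 genes in all higher and 5188 lower. Without a filter beyond 1 count in total, 14 pathway genes were called lower.

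With 1 library left out, the KO level of CHSY3 was 126 to 314 times the highest WT floor, the latter without WT replicate 3. Its share of the 4 family genes in KO was 12.4% per kb and 11.6% without division by length, and its level was 8.89 CPM per kb with the canonical transcript length, an alternative chosen after seeing the data. Of 117 log2 fold changes of the members under the alternatives, 113 kept their direction and call. Those of CHPF2 turned to -0.01, -0.02 and -0.03 without WT replicate 2, WT replicate 3 and KO replicate 2, and that of CSGALNACT1 to 0.14 without WT replicate 1. With 1 library left out CHPF2 ranged from -0.03 to 0.05, CSGALNACT1 from -0.24 to 0.14, NDST1 from -0.01 to 0.12, GUSB from -0.03 to 0.05 and ENSG00000244192 from -0.29 to 0.05. Of 521 values of the other named genes, 512 kept theirs, 5 lost the call and 4 turned: NDST1 to -0.01 and ENSG00000244192 to 0.05 without WT replicate 1, and GUSB to -0.03 and -0.02 without WT replicate 3 and KO replicate 2. The cause was not tested.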
